A study of Mus musculus with 2 samples.

Results

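Membrane repair, caveolae and T-tubule genes were described in mouse gastrocnemius, the large muscle of the calf, through 9 genes: Dysf, Myof, Cav1, Cav3, Trim72, Anxa1, Anxa2, Anxa6 and Bin1. They were chosen by symbol, and all 9 had a row among the 55536 genes of each gene table, with 64 of the 141767 annotated transcripts. Total RNA came from 36-day-old females of B6CASTF1/J, a first-generation cross between a laboratory and a castaneus strain, and the labels name no treatment. Both libraries, replicate 2 and replicate 1, belong to 1 group, and 300 ng of RNA went into each along with ERCC spike-in RNAs. There is no second condition and so no test and no p-value. Nothing in the labels says whether the animals were different, so spread between animals and technical spread cannot be told apart. The 2 libraries differed widely in some marker RNAs, given below, and the source of that difference was not tested.

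A muscle fibre is torn by its own contractions, and calcium that enters through the tear sets off the patching of the plasma membrane. Ferlins and annexins bind membrane lipids when calcium rises, and Trim72, also called MG53, gathers vesicles at the wound. Caveolae are small pits of the plasma membrane shaped by caveolins, and T-tubules are the deep infoldings that carry the action potential into the fibre, whose curvature Bin1 is known to shape.

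Several of these genes are spliced in alternative forms, and the alternative coding stretches that set the forms apart are shown here because the measured transcript shares turn on them. Sequences were read from GENCODE M21 transcripts, in mm10, 5′ to 3′ along the gene. In the exons, capitals mark the alternative exon and lower case the 12 transcript bases on each side, and the coordinates are those of the exon. In the stretches that begin a protein, capitals mark a start codon. No sequence is shown for Bin1.
Dysf upstream coding start, chr6:84008915-84009002, plus strand: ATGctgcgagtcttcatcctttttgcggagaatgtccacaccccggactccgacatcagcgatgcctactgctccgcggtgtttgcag
Dysf downstream coding start, chr6:84019518-84019608, plus strand: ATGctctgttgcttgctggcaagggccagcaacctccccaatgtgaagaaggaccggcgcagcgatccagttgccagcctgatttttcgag
Dysf 42-base exon, chr6:84096477-84096518, plus strand: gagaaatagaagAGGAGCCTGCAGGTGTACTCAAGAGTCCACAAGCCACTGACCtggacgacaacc
Dysf 93-base exon, chr6:84064471-84064563, plus strand: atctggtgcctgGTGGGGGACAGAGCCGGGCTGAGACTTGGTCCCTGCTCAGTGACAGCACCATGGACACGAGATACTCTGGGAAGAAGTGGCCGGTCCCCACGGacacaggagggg
Dysf 63-base exon, chr6:84157139-84157201, plus strand: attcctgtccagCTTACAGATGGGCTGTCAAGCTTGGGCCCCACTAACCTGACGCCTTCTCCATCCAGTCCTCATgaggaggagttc
Myof 39-base exon, chr19:37969907-37969945, minus strand: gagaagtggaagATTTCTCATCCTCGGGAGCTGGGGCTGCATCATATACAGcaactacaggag
Anxa6 18-base exon, chr11:54987051-54987068, minus strand: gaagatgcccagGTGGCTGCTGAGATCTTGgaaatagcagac
Cav1 from its alpha start codon to just past its beta start codon, spliced, chr6:17306450-17307958, plus strand: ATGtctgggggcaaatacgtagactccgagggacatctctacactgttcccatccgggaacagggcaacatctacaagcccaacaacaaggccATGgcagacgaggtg

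The gene tables summed to 40656175 estimated counts in replicate 2 and 37735687 in replicate 1. Levels are given as TPM, a measure of transcript number that corrects for length and sums to the same total in each library. The libraries differed in the RNA of other fibre and cell types, as sums of TPM over short marker lists show. The 7 slow fibre markers summed to 2612 TPM in replicate 2, against 15.1 TPM in replicate 1, and the 7 fast fibre markers to 67530 TPM in replicate 2, against 93405 TPM in replicate 1. The 6 fat cell markers summed to 112 TPM in replicate 2, against 342 TPM in replicate 1, and the 5 red blood cell markers to 425 TPM in replicate 2, against 2445 TPM in replicate 1. Fabp4 alone made 88.4 TPM of the fat cell sum in replicate 2 and 127 TPM in replicate 1. Mitochondrial genes took 17.5% of all counts in replicate 2, against 9.39% in replicate 1. The 5 Schwann cell markers summed to 22.2 TPM in replicate 2, against 90.02 TPM in replicate 1, and the 5 tendon markers to the higher 82.95 TPM in replicate 2, against 59.4 TPM in replicate 1. No marker on these lists was at 0. The high levels of fast fibre markers in both libraries match the labelled muscle, while 2 of the 7 slow fibre markers reached 1 TPM in both libraries. The others fell below it in replicate 1 only, since the lowest of the 7 in replicate 2 was Tnni1 at 170 TPM. Atp2a2 alone made 12.2 TPM of the slow fibre sum in replicate 1. In bulk RNA, fewer cells of a type and less RNA per cell cannot be told apart.

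All 9 genes were detected, at no less than 1 TPM in both libraries, a level that 19.5% of all 55536 genes reached. Their levels spanned a 129.3-fold range of mean TPM, with Bin1 at the top and Myof at the bottom, and the median of the 9 means was 31.7 TPM. The median over detected genes was 7.15 TPM in replicate 2, against 7.17 TPM in replicate 1. The order of mean levels was Bin1, Trim72, Anxa6, Cav1, Dysf, Cav3, Anxa2, Anxa1 and Myof. Neighbours in that order did not overlap between their 2 values each, except Dysf and Cav3. The reads-based tables, which assign reads to transcripts directly and are summed here per gene, kept the same order apart from Dysf and Cav3, which changed places.

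**Figure D1:**
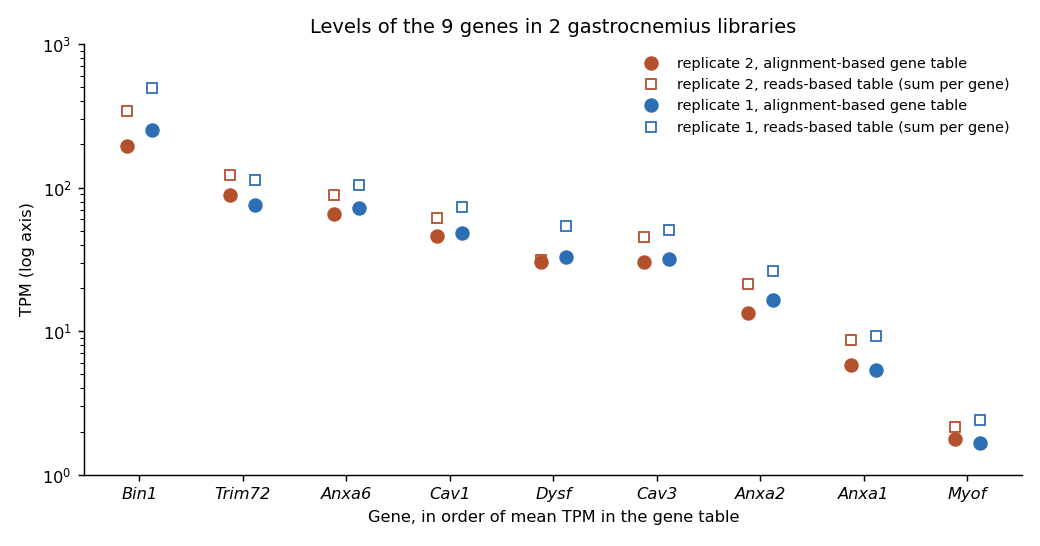
TPM of each gene, on a log axis, in replicate 2 (left of each pair) and replicate 1 (right), from the alignment-based gene table (filled circles) and the reads-based table summed per gene (open squares). The 2 libraries lie close beside the range from Bin1, at 194 TPM in replicate 2 and 253 in replicate 1, to Myof, at 1.78 TPM in replicate 2 and 1.67 in replicate 1, and the reads-based values lie higher for every gene.

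Dysf encodes dysferlin, a membrane protein with several calcium-binding C2 domains whose loss in human causes limb-girdle muscular dystrophy. It was measured at 30.3 TPM in replicate 2, against 33.1 TPM in replicate 1, a mean of 31.7 ± 1.99 TPM (SD, n = 2), higher than 85.0% of detected genes. The libraries thus lay close by TPM, but not by counts. Its estimated counts were 3866 in replicate 2 and 4823 in replicate 1, and scaled for depth they gave a log2 ratio of replicate 2 over replicate 1 of -0.38, with a 95% exact counting interval from -0.44 to -0.32. Such intervals cover counting error only. By TPM the log2 ratio was -0.13.

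That gap between counts and TPM lay beside the shares given to short transcripts. Dysf-207, a non-coding transcript of 404 bases at the 3′ end of the gene, held 94.3 counts but 31.6% of Dysf TPM in replicate 2, and 66.5 counts and 21.6% in replicate 1. Dysf-208, non-coding and 549 bases long, held 10.1% in replicate 2 and 6.52% in replicate 1. The 12 complete coding transcripts together stood at 17.4 TPM in replicate 2, against 23.3 TPM in replicate 1. In the reads-based table Dysf-207 was at 0 in replicate 2 and held 20.5% in replicate 1, and Dysf as a whole stood at 31.1 TPM in replicate 2, against 54.0 TPM in replicate 1. By counts the log2 ratio of Dysf was close in both tables, at -0.38 by alignment and -0.36 by the reads-based table. By TPM it was -0.13 by alignment and -0.80 by the reads-based table. The part of the short transcripts in this spread was not tested.

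The coding transcripts of Dysf begin at 2 starts, each of which encodes its own beginning of the first C2 domain. By alignment, transcripts from the upstream start held 52.3% of the TPM of complete coding transcripts in replicate 2 and 55.9% in replicate 1. The reads-based shares were 47.1% in replicate 2 and 57.0% in replicate 1. Each start thus held between 43.0% and 57.0% in all 4 estimates, and which of them led differed between tables in replicate 2. Dysf-204, from the upstream start, held 26.9% of gene TPM in replicate 2 and 32.4% in replicate 1, and Dysf-202, from the downstream start, held 27.5% in replicate 2 and 31.1% in replicate 1. The reads-based table gave Dysf-204 30.3% in replicate 2 and 29.1% in replicate 1, and Dysf-202 31.9% in replicate 2 and 13.99% in replicate 1. These 2 forms share the 42-base exon and lack the 93-base and 63-base exons.

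Use of those exons was one-sided. The 42-base exon was in 94.6% of complete coding TPM in replicate 2 and 95.8% in replicate 1, and in 90.3% of it in replicate 2 and 95.5% in replicate 1 by the reads-based table. The 93-base exon was in 5.45% in replicate 2 and 4.16% in replicate 1, and by the reads-based table in 9.69% in replicate 2 and 11.9% in replicate 1. For the 63-base exon, whose human counterpart is known as the place where calpain cleaves dysferlin, the shares were 5.50% in replicate 2 and 9.82% in replicate 1. Its reads-based shares were 8.49% in replicate 2 and 19.3% in replicate 1. Each of these exons is a multiple of 3 bases, so none shifts the reading frame. The skipping of the 30-base exon, annotated in 1 transcript, took no TPM in either table or library.

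Myof encodes myoferlin, a ferlin known for the fusion of myoblasts. It had 1.78 TPM in replicate 2, against 1.67 TPM in replicate 1, a mean of 1.73 ± 0.0778 TPM (SD, n = 2), and only 9.16% of detected genes were at or below it. The counts, 266 in replicate 2 and 263 in replicate 1, gave a log2 ratio of -0.05 with a counting interval from -0.30 to 0.21. At this depth the libraries did not differ beyond counting error. Myof-211, which includes the 39-base exon, held 64.6% of Myof TPM in replicate 2 and 56.9% in replicate 1 by alignment. The reads-based table instead gave it 21.9% in replicate 2 and 40.9% in replicate 1, and gave Myof-201, without the exon, 50.3% in replicate 2 and 27.2% in replicate 1. Shares of at least 10% went in single estimates to 3 other Myof transcripts, from few counts: Myof-210 had 16.2% in replicate 1 and Myof-205 18.5% in replicate 2 by alignment, and Myof-203 18.9% in replicate 1 by the reads-based table. The posterior SD of the count, the deposited measure of how surely reads were assigned, was 43.3 counts of 242 for Myof-211 in replicate 2 and 33.2 of 190 in replicate 1. The use of the 39-base exon ranged from 30.3% to 100% over the 4 estimates and could not be settled at this depth.

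Among the 6 ferlins, Dysf held 91.3% of TPM in replicate 2, against 93.9% in replicate 1. Of the 4 ferlins outside the 9 genes, Fer1l6 was the highest, at 1.02 TPM in replicate 2, against 0.47 TPM in replicate 1, from 60 counts in replicate 2 and 28 in replicate 1. Otof, otoferlin, known for vesicle release in hair cells of the ear, had 16 counts in replicate 2 and 3 counts in replicate 1. Fer1l4 and Fer1l5 were listed at 0 in both libraries, which allows up to 3 counts in each. No ferlin other than Dysf and Myof reached 1 TPM in both libraries.

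Trim72, a muscle protein of the tripartite motif family that oligomerises at membrane wounds, was the second highest of the 9 genes. It stood at 88.6 TPM in replicate 2, against 75.6 TPM in replicate 1, a mean of 82.1 ± 9.16 TPM (SD, n = 2), higher than 93.9% of detected genes. Its estimated counts of 5787 in replicate 2 and 4673 in replicate 1 gave a log2 ratio of 0.25, with a counting interval from 0.19 to 0.30. Trim72 and Anxa1 were the genes with a positive ratio, and the interval of Trim72 alone lay above 0. Trim72-202 held 97.7% of its TPM in replicate 2 and 97.1% in replicate 1, and all of it in the reads-based table. Both annotated transcripts encode the same 1431 coding bases and differ in their untranslated ends. The gene (ENSMUSG00000042828.12) lies on chromosome 7 from 128003949 to 128011033 on the plus strand.

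The 3 annexins were spread over the range. Anxa6, an annexin with a doubled core that forms a cap over lesions in muscle fibres, stood at 65.7 TPM in replicate 2, against 72.2 TPM in replicate 1, a mean of 69.0 ± 4.59 TPM (SD, n = 2). Its counts of 5045 in replicate 2 and 5249 in replicate 1 gave a log2 ratio of -0.12, with an interval from -0.18 to -0.06. Anxa2, which binds S100a10 in a complex at the plasma membrane, stood at 13.4 TPM in replicate 2, against 16.4 TPM in replicate 1, a mean of 14.9 ± 2.17 TPM (SD, n = 2). It had 582 counts in replicate 2 and 674 counts in replicate 1, with a log2 ratio of -0.27 and an interval from -0.44 to -0.11. Anxa1, best known from inflammation and also recruited to membrane wounds, was lower, at 5.80 TPM in replicate 2, against 5.39 TPM in replicate 1. Its mean was 5.60 ± 0.290 TPM (SD, n = 2), and 281 counts in replicate 2 and 253 in replicate 1 gave a log2 ratio of 0.09 with an interval from -0.16 to 0.34, which includes 0. Anxa1 and Anxa2 are also made by fibroblasts and white blood cells. All 6 fibroblast markers were detected, with a sum of 388 TPM in replicate 2, against 379 TPM in replicate 1, and 4 of 6 macrophage markers, with 16.7 TPM in replicate 2 and 15.6 in replicate 1. The part of those cells in the annexin levels was not tested.

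Anxa6 accounted for 41.97% of the TPM of all 12 annexins in replicate 2 and 40.6% in replicate 1. Anxa2 took 8.52% in replicate 2 and 9.23% in replicate 1, and Anxa1 took 3.70% in replicate 2 and 3.03% in replicate 1. Next after Anxa6 was Anxa11, at 35.6 TPM in replicate 2, against 38.7 TPM in replicate 1. The partners S100a10 and S100a11 were near Anxa2 in level: S100a10 had 15.2 TPM in replicate 2, against 17.3 TPM in replicate 1, and S100a11 had 14.7 TPM in replicate 2, against 16.5 TPM in replicate 1. Of the 11 annexins and S100 partners outside the 9 genes, 7 were detected, while Anxa9, Anxa10 and Anxa13 had no count in either library in the gene table, which allows up to 3 counts in each. The reads-based table gave Anxa9 1 count in replicate 1.

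Anxa6 was made as 2 main transcripts that differ by the 18-base exon. Anxa6-202, which includes it, held 76.9% of Anxa6 TPM in replicate 2 and 69.6% in replicate 1, and Anxa6-201, which skips it, 21.5% in replicate 2 and 29.2% in replicate 1. The exon was thus in 78.1% of complete coding TPM in replicate 2 and 70.5% in replicate 1, and by the reads-based table in 80.1% in replicate 2 and 75.2% in replicate 1. Longer-form RNA led in all 4 estimates. Anxa2-201 held 97.6% of Anxa2 TPM in replicate 2 and 97.9% in replicate 1 by alignment. By the reads-based table it held 77.3% in replicate 2 and 88.8% in replicate 1, where Anxa2-204, a transcript of 827 bases, took 17.9% in replicate 2 and none in replicate 1.

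For Anxa1 the leading transcript differed between the libraries. Anxa1-208 held 68.2% of its TPM in replicate 2 and 30.8% in replicate 1, and Anxa1-201 held 28.6% in replicate 2 and 67.3% in replicate 1. The reads-based table gave the same order within each library, with Anxa1-208 at 82.9% in replicate 2 and 39.02% in replicate 1. Both transcripts hold the same 1038 coding bases and differ in exons ahead of them. The posterior SD was 45.05 counts of 194 for Anxa1-208 in replicate 2 and 45.4 of 77.1 in replicate 1. Reads were thus loosely assigned between these 2 transcripts.

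**Figure D2:**
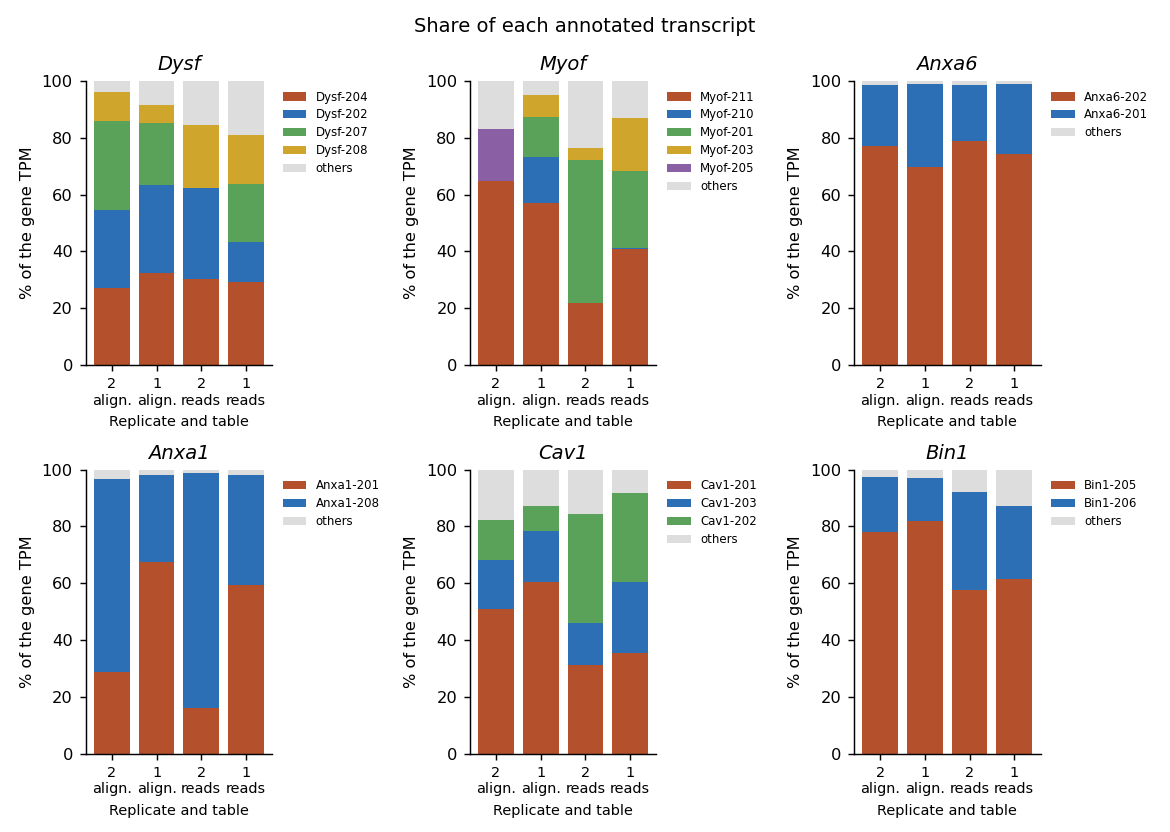
Share of each gene's TPM held by its annotated transcripts, for Dysf, Myof, Anxa6, Anxa1, Cav1 and Bin1. The leading transcripts of Anxa1 hold the same coding bases. Bars run from left to right as replicate 2 and replicate 1 by alignment, then replicate 2 and replicate 1 by the reads-based table. Anxa6 and Bin1 have the same leading transcript in all 4 bars, while Anxa1 changes with the library and Dysf, Myof and Cav1 change with the table or the library.

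Cav1 and Cav3 encode caveolins. Cav1 is the form of fat, endothelial and other cells, and Cav3 is the form of muscle fibres, mutated in human rippling muscle disease. Cav1 stood at 45.7 TPM in replicate 2, against 48.3 TPM in replicate 1, a mean of 47.0 ± 1.87 TPM (SD, n = 2), and Cav3 at 30.4 TPM in replicate 2, against 31.9 TPM in replicate 1, a mean of 31.1 ± 1.05 TPM (SD, n = 2). The RNA of the fibre form was therefore lower than that of Cav1 in this tissue, with no overlap of the libraries. Cav3 held 39.9% of the TPM of the pair in replicate 2 and 39.7% in replicate 1, and on the reads-based estimate 42.6% in replicate 2 and 40.8% in replicate 1.

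Neither caveolin differed much between the libraries. Cav1 had 2634 counts in replicate 2 and 2723 counts in replicate 1, with a log2 ratio of -0.11 and an interval from -0.19 to -0.03. Cav3 had 1036 counts in replicate 2 and 1029 counts in replicate 1, with a log2 ratio of -0.05 and an interval from -0.18 to 0.07. All 6 endothelial markers were detected, with a sum of 51.3 TPM in replicate 2, against 49.5 TPM in replicate 1. By log2 ratio, 5 of these markers were higher and 1 lower in replicate 2, with a median of 0.23. Kdr had 6.28 TPM in replicate 2, against 3.36 TPM in replicate 1. Vwf had 5.31 TPM in replicate 2, against 10.4 TPM in replicate 1. Fat cell markers, 5 of 6 detected, summed to the lower 112 TPM in replicate 2, against 342 TPM in replicate 1. Of these sums Fabp4 alone made 88.4 TPM in replicate 2 and 127 TPM in replicate 1, with a log2 ratio of -0.54. The other fat cell markers had log2 ratios from -3.82 for Lep to -2.94 for Plin1. The part of either cell type in the Cav1 level was not tested.

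Cav3 has 1 annotated transcript of 1157 bases, so its level does not depend on how transcripts are divided. Cav1 codes for 2 forms, alpha of 534 coding bases and beta of 441, whose start codons lie 93 bases apart in the spliced sequence shown above. The share of each start was taken over the 4 complete transcripts that end at the main stop codon, which leaves out Cav1-209 with its shorter coding part. By alignment, those with the alpha start held 64.6% of their TPM in replicate 2 and 70.7% in replicate 1. By the reads-based table they held 41.9% in replicate 2 and 41.5% in replicate 1. Which form led thus changed with the table in both libraries. Cav1-201, the long alpha transcript, held 51.0% of Cav1 TPM in replicate 2 and 60.4% in replicate 1 by alignment, and on the reads-based estimate 31.1% in replicate 2 and 35.3% in replicate 1. Of the beta transcripts, Cav1-203, which is 613 bases long, held 17.2% in replicate 2 and 18.0% in replicate 1 by alignment, and 14.9% in replicate 2 and 25.2% in replicate 1 by the reads-based table. Cav1-202, a longer beta transcript, held 14.2% in replicate 2 and 8.70% in replicate 1 by alignment. The reads-based table gave it 38.5% in replicate 2 and 31.3% in replicate 1.

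The other caveolae genes, a list of 10 chosen with earlier results known, were all detected. Cavin1, which is needed for caveolae to form, stood at 59.8 TPM in replicate 2, against 66.4 TPM in replicate 1. Cavin4, the cavin of muscle, stood at 52.7 TPM in replicate 2, against 58.0 TPM in replicate 1, and held 40.3% of the TPM of the 4 cavins in replicate 2 and 41.01% in replicate 1. Pacsin3, a muscle-enriched protein that bends membranes and takes part in forming caveolae, was the highest, at 130 TPM in replicate 2, against 153 TPM in replicate 1. Its relative Pacsin2 stood at 19.8 TPM in replicate 2, against 12.4 TPM in replicate 1, a log2 ratio of 0.61 from 1150 counts in replicate 2 and 720 in replicate 1.

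Bin1 encodes amphiphysin 2, which bends membranes into tubules and is mutated in human centronuclear myopathy. It was the highest of the 9 genes, at 194 TPM in replicate 2, against 253 TPM in replicate 1, a mean of 223 ± 41.9 TPM (SD, n = 2), higher than 97.7% of detected genes. Its counts, 10761 in replicate 2 and 13451 in replicate 1, gave a log2 ratio of -0.38 with an interval from -0.42 to -0.35, the largest difference among the 9 genes and close to that of Dysf. Among the 4 genes Bin1, Bin2, Bin3 and Amph, it held 98.7% of TPM in replicate 2, against 99.4% in replicate 1. The slow fibre, fast fibre, fat, Schwann cell, tendon and red blood cell marker sums given above also differed between the libraries, and their part in this difference was not tested.

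Among its complete coding transcripts, Bin1 was made almost wholly as forms without the exons of brain. Bin1-205 held 78.2% of Bin1 TPM in replicate 2 and 82.1% in replicate 1, and Bin1-206, which adds a 72-base exon, held 19.4% in replicate 2 and 14.9% in replicate 1. The reads-based table gave Bin1-205 57.5% in replicate 2 and 61.5% in replicate 1. It gave Bin1-206 34.6% in replicate 2 and 25.6% in replicate 1. Bin1-203, an incomplete transcript left out of the exon shares, held 4.27% in replicate 2 and 9.41% in replicate 1 by that table. It spans the position of the 93-base exon named below, and whether it carries that exon was not examined. The 72-base exon was in 20.99% of complete coding TPM in replicate 2 and 17.1% in replicate 1, and by the reads-based table in 39.5% in replicate 2 and 31.6% in replicate 1. Bin1-201, the long form of neurons, carries 4 exons that no other complete coding transcript has, among them the 93-base exon 7, and it held 0.199% in replicate 2 and 0.328% in replicate 1. The 129-base exon, in Bin1-201 and Bin1-202, was in 1.39% in replicate 2 and 1.96% in replicate 1, and by the reads-based table in 3.09% in replicate 2 and 3.08% in replicate 1. The annotation lists 6 alternative coding exons of Bin1, and the short phosphoinositide-binding exon known from muscle is not among them, so its use was not measured. Bin1 (ENSMUSG00000024381.16) lies on chromosome 18 from 32377230 to 32435737, and the opposite-strand lincRNA A830052D11Rik, which overlaps it, had 31 counts in replicate 2 and 35 counts in replicate 1.

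**Figure D3:**
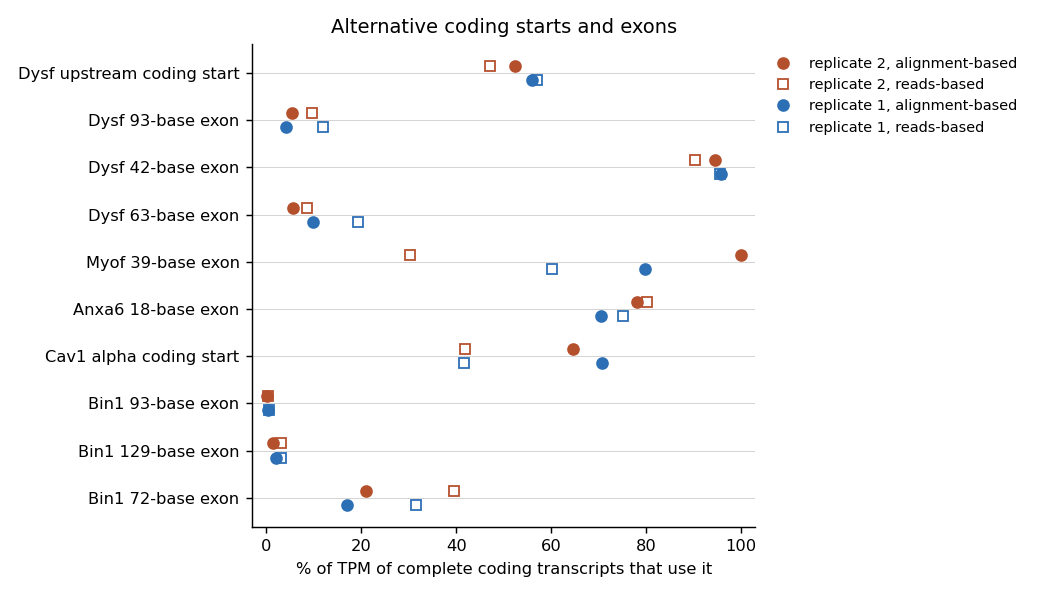
Percent of the TPM of complete coding transcripts that use each alternative coding start or exon, in replicate 2 (upper of each pair) and replicate 1 (lower), by alignment (filled circles) and by the reads-based table (open squares). The Dysf 42-base exon lies above 90% and the Bin1 93-base exon below 1% in all 4 estimates, while the Myof 39-base exon and the Cav1 alpha start move with the table.

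Among the 9 other T-tubule and amphiphysin genes, Cacna1s, the voltage sensor of the T-tubule, was the highest, at 327 TPM in replicate 2, against 394 TPM in replicate 1. Sypl2, a membrane protein of the triad where T-tubules meet the calcium store, stood at 188 TPM in replicate 2, against 227 TPM in replicate 1. Jph2, a junctophilin that ties T-tubules to the calcium store, stood at 167 TPM in replicate 2, against 235 TPM in replicate 1, with a log2 ratio of -0.48. None of the 6 with a mean count of at least 100 lay past 1.5-fold, and their median log2 ratio was -0.23.

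Repair genes outside the 9, a list of 13, were all detected. Ahnak, a giant scaffold that binds dysferlin and the S100a10 complex, stood at 81.5 TPM in replicate 2, against 92.2 TPM in replicate 1. Capn3, the muscle calpain, stood at 49.0 TPM in replicate 2, against 51.2 TPM in replicate 1, and Ano5, an anoctamin mutated in human limb-girdle muscular dystrophy, at 42.6 TPM in replicate 2, against 54.9 TPM in replicate 1. Their ratios, from -0.05 for Capn3 to -0.32 for Ano5, stayed within 1.5-fold, and the median over the list was -0.04.

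Between the libraries, none of the 9 genes lay past 1.5-fold in either direction by TMM-scaled counts. Of the 9996 genes whose counts averaged 100 or more, 5.77% were over 1.5-fold higher and 3.23% over 1.5-fold lower in replicate 2. The median absolute log2 ratio was 0.12 for the 9 genes and 0.17 for those genes, and 81.0% of the genes had an absolute ratio no larger than that of Bin1. The signed median was -0.11 for the 9 genes, with 2 higher and 7 lower in replicate 2, against -0.01 for all of those genes. The counting interval excluded 0 for 6 of the 9 genes: Bin1, Dysf, Anxa2, Anxa6 and Cav1, lower in replicate 2, and Trim72, higher. The share of all genes with such an interval was not computed, so this count describes the 9 genes only. With the spike-in total in place of TMM, the median of all genes moved by 0.38, the ratios of Bin1 and Dysf became 0.00, those of the other 7 genes were positive, and Trim72, at 0.63, passed 1.5-fold. That is 1 of 9 genes, where 22.5% of all genes were over 1.5-fold higher under the same scaling, and 0 of 9 were over 1.5-fold lower, against 1.24%. By reads-based TPM, a setting added after the data were seen, Dysf was over 1.5-fold lower in replicate 2, at a log2 ratio of -0.80, as were 7.94% of all genes, and 0 of 9 were over 1.5-fold higher, against 4.94%.

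**Figure D4:**
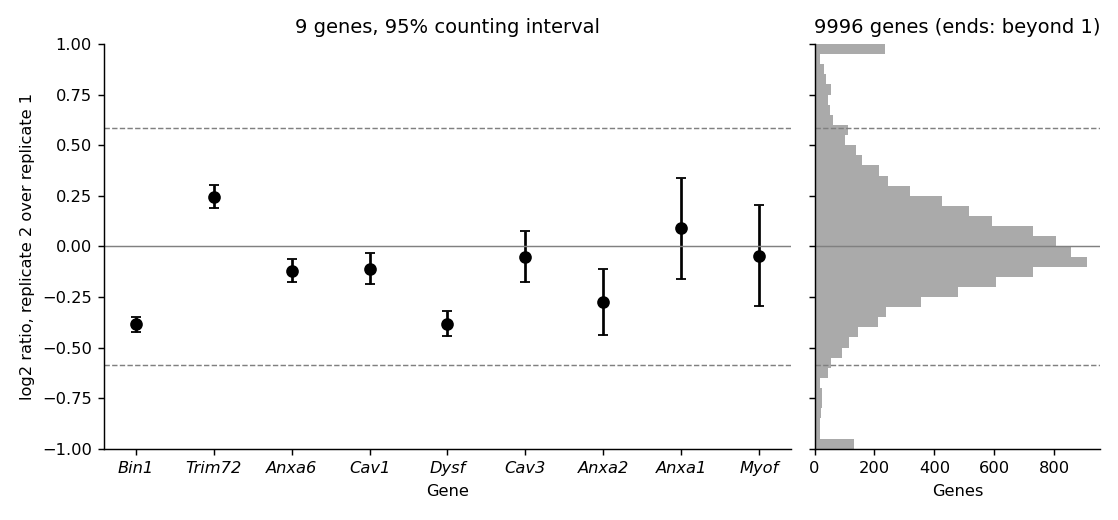
Log2 ratio of replicate 2 over replicate 1 for the 9 genes (left, with 95% exact counting intervals) and for the 9996 genes whose counts averaged 100 or more (right, with values beyond 1 placed in the end bars). Dashed lines mark 1.5-fold, and the 9 genes lie between -0.38 and 0.25, inside them.

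Over the 47 other pathway genes on the 5 lists, 37 were detected in both libraries and 36 had a mean count of at least 100. Of these 36, 1 was over 1.5-fold higher in replicate 2, which was Pacsin2, and none was over 1.5-fold lower. Over all genes with such counts the shares were 5.77% higher and 3.23% lower. Their median log2 ratio was -0.13, beside -0.11 for the 9 genes. As these lists were chosen with results of these data known, the counts are a description only.

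**Figure D5:**
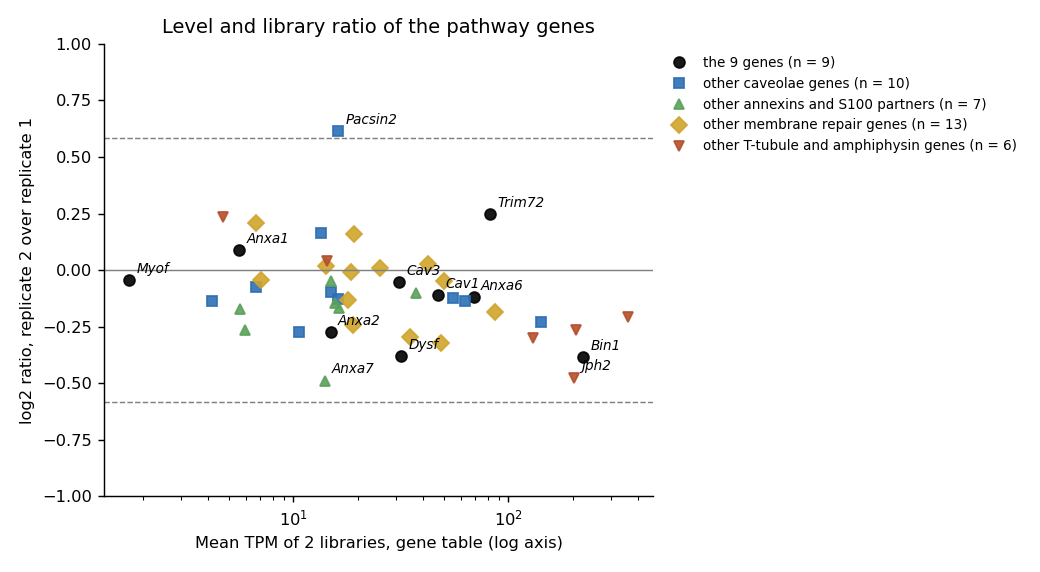
Log2 ratio of replicate 2 over replicate 1 against mean TPM on a log axis, for the 9 genes (black) and the 36 other pathway genes whose counts averaged 100 or more. Pacsin2, at 0.61, is the point above the dashed 1.5-fold line, and most points lie below 0. Among these are the other T-tubule genes of high TPM, from -0.21 for Cacna1s to -0.48 for Jph2.

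For each of the 9 genes, the protein-coding gene with the most similar values was found by the largest difference of log2(TPM + 1) over 4 values, from 2 libraries and 2 tables. The nearest to Bin1 was Rpl32, with a largest difference of 0.19, and the nearest to Dysf was Iars, at 0.11. Trim72 lay nearest to Cisd1 (0.08), Anxa2 to Mgat4b (0.07) and Cav1 to Rdx (0.05). Anxa6 with Adipor1 (0.04), Anxa1 with Psmg4 (0.04), Cav3 with Cops3 (0.03) and Myof with Mex3d (0.04) were nearer still. With 4 values of which 2 share a library, such likeness describes levels only.

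Positions of the remaining genes in mm10 were chromosome 6 from 84008590 to 84211060 for Dysf (ENSMUSG00000033788.15), from 17306335 to 17341452 for Cav1 (ENSMUSG00000007655.16) and from 112459505 to 112472872 for Cav3 (ENSMUSG00000062694.7), all on the plus strand. Anxa2 (ENSMUSG00000032231.14) lies on chromosome 9 from 69453620 to 69491795, also on the plus strand. Anxa6 (ENSMUSG00000018340.13) on chromosome 11 from 54979108 to 55033445, Anxa1 (ENSMUSG00000024659.15) on chromosome 19 from 20373428 to 20390944 and Myof (ENSMUSG00000048612.16) on chromosome 19 from 37899036 to 38043577 lie on the minus strand. The gene counts of all 9 carried a posterior SD of 0, so the uncertainty of assignment lay between transcripts of a gene and not between genes. Gm7498, a pseudogene on the same strand within Dysf, had 6.17 counts in replicate 2 and 8.34 counts in replicate 1.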

How the data were processed

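The gene and transcript tables hold expected counts and TPM that the authors deposited from alignments, per the file headers and descriptions, to mm10 with GENCODE M21, and a second transcript table holds estimated counts and TPM taken directly from reads. TPM as deposited sums over all rows, spike-ins and 7SL RNA included. The deposited posterior SD of each count was used as a score of assignment. The deposited percent of a gene held by each transcript was not used, and shares were computed from TPM. For the quantifier and its strand setting, not given in the sources used here, nothing is assumed. How alleles of the castaneus parent align to mm10 was not tested.

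Expected counts were rounded for edgeR (4.0.16) and the alternative DESeq2 (1.42.0), both under R 4.3.3. Log2 ratios are replicate 2 over replicate 1 with TMM scaling and a prior count of 0.5, read only at a mean count of at least 100. Intervals are exact (Clopper-Pearson) at 95%. Counting error is all that they, and the floor of 3 counts, cover, since reads are not independent molecules. Exon shares are the TPM of complete coding transcripts with the exon over that of those spanning it. Ratios were tested on simulated data. Other steps ran in Python 3.11.15 (scipy 1.17.1, pandas 2.3.3, numpy 2.4.6, figures by matplotlib 3.10.9). The 26248 tRNA rows, with 0 counts in replicate 2 and 3 in replicate 1, were left out.

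The genes and lists were chosen with earlier results of these data known. Named beside the 9 genes are, of each list, the 3 highest and those past 1.5-fold with counts averaging 100 or more, and transcripts with at least 10% of a gene's TPM. Fer1l5, Anxa9, Anxa10, Anxa13, Bin2, Bin3, Amph and other transcripts were named after their values were seen, as were the alternative exons. Alternatives covered detection, scaling, filter, fold, table and each library left out.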

Additional observations from a re-analysis of the deposited data

How the results depend on the processing

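All 9 genes stayed detected in the reads-based table and in either library alone, and 8 of 9 at 5 TPM. The share of all genes under these settings was not computed. Levels moved with the table: the median TPM of the 9 genes was 47.9 by the reads-based table, and 59.4 with TPM rescaled without mitochondrial, spike-in and 7SL rows, against 31.7 as deposited. It ranged from 30.4 to 33.1 with 1 library left out. Each of the 9 levels moved up under both changes. The median log2 ratio of the 9 genes was 0.27 under spike-in scaling, which moves all genes by 0.38, between -0.16 and -0.08 under the other 5 planned settings, and -0.24 by reads-based TPM, added after the data were seen, where the median of all genes moved by -0.11. Spike-in scaling gave 1 gene (Trim72) over 1.5-fold higher, where 22.5% of all genes were, and the other settings run gave 0. Reads-based TPM gave 1 gene (Dysf) over 1.5-fold lower, where 7.94% of all genes were, and the other settings run gave 0. The ratio of Anxa1 was -0.09 by reads-based TPM and that of Myof 0.09 by deposited TPM, with signs opposite to those by TMM. The count of genes with the same leading transcript in both tables and libraries was 5, also by counts. It includes Cav3, whose 1 annotated transcript fixes the outcome, and the share of all genes was not computed. With 1 library left out the count was 6 to 9, 9 of them in replicate 1 alone. Fewer estimates are then compared, so it could only stay or rise and is no check of the 5. No paired analysis was possible because the series has 1 group. Depth limits Myof and Anxa1, whose counts of under 300 leave wide intervals, and the division of reads limits transcript shares.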
